A study of Mus musculus with 6 samples.

Results

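Regulators and targets of the integrated stress response were followed in RNA of iNKT (invariant natural killer T) cells from the spleen, lymphocytes whose semi-invariant receptor recognises lipids on CD1d. The 10 genes, taken by name from the 48709 genes of the deposited expression table, were Atf4, Ppp1r15a, Ddit3, Trib3, Chac1, Asns, Sesn2, Eif2ak3, Eif2ak4 and Eif2ak1, and all 10 were found. The labels describe 6 samples of sorted cells in a resting state from Mus musculus, 3 with genotype WT and 3 with genotype Gpx4 cKO, a conditional knockout of the glutathione peroxidase gene that restrains lipid peroxidation. The sources used here name neither the Cre driver nor the age of the mice, nor whether each sample was a separate animal. RNA was extracted with a NucleoSpin RNA XS kit and a QIAseq UPXome kit served for library preparation. Each library in the table carries a number from 18 to 23 and an index that occurs in no label, so 0 of 6 libraries could be assigned to a genotype. WT was therefore not compared with Gpx4 cKO, and the libraries are described singly.

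The integrated stress response lowers general protein synthesis when a kinase phosphorylates the alpha subunit of the initiation factor eIF2. The kinase genes are Eif2ak1 (HRI, sensing haem shortage and mitochondrial stress), Eif2ak2 (PKR, sensing double-stranded RNA), Eif2ak3 (PERK, sensing unfolded proteins in the endoplasmic reticulum) and Eif2ak4 (GCN2, sensing uncharged tRNA). Translation of the transcription factor ATF4 rises under these conditions through upstream open reading frames in its mRNA, so the RNA level of Atf4 alone does not report the pathway's activity. ATF4 induces amino acid genes such as Asns, the factor gene Ddit3 (CHOP), and Ppp1r15a (GADD34), whose product brings a phosphatase to eIF2 and restores translation.

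Per kilobase of exon, Ppp1r15a and Atf4 were the most abundant of the 10, Ddit3 and the kinases were intermediate, and Sesn2, Asns, Trib3 and Chac1 had between 3 and 127 exon reads in all libraries together. Among the 6 members with at least 200 reads, Ppp1r15a varied most between libraries, followed by Atf4. Sesn2, with 127 reads, had a higher ratio of highest to lowest level, 7.86, with an interval of 1.24 to 328. Levels are given as CPM, exon reads per 1000000 of the library's effective size. The 95% exact Poisson intervals in parentheses cover counting error only, and whether PCR copies were removed is not known. In bulk RNA such as this, fewer cells of a type and less RNA per cell cannot be told apart.

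Total exon reads ranged from 903524 in library 21 to 10122187 in library 19, so that a count of 0, taken to allow up to 3 reads, allowed levels up to 3.62 and 0.282 CPM there, respectively. Markers of iNKT and T cells were present throughout, with Zbtb16, the PLZF gene, at 245 to 357 CPM. Reads on Gpx4, the targeted gene, were found in all 6 libraries, from 3.20 (library 19) to 31.3 CPM (library 20), and were not used to sort the libraries. The summed level of 6 B cell markers ranged from 666 (library 18) to 4594 CPM (library 23), nearly all of it the immunoglobulin gene Igkc. The B cell receptor signalling gene Cd79a stayed at or below 12.7 CPM. The 5 myeloid markers found summed to between 1.21 and 4.34 CPM, with S100a8 at 0 in every library, and the 5 erythroid markers to between 3.98 CPM in library 18 and 280 CPM in library 23. The 3 plasma cell markers summed to between 155 and 1197 CPM in the same libraries, nearly all of it the immunoglobulin joining chain gene Jchain.

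Sequences upstream of 3 members are shown because they hold the letters most often described for this pathway or for cyclic AMP response factors, and because their transcripts lie at opposite ends of the range. The C/EBP-ATF response element bound by ATF4 was searched on both strands as TTGCATCA and, more loosely, as TTNCATCA, which includes every match of the first. The cyclic AMP response element was searched as TGACGTCA. Windows ran from 250 bases before to 50 bases after each RefSeq start site (build GRCm38.p6), and 11 windows covered all 10 members. Capitals mark the matched letters, and each sequence ends at the base before the start site.
Chac1 (chr2:119350992-119351241, plus strand): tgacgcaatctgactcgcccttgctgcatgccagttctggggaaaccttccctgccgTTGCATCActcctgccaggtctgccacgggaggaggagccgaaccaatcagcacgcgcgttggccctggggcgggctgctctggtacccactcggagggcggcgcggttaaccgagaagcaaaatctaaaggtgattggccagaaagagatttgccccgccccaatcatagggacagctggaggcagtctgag
Asns (chr6:7693210-7693459, minus strand): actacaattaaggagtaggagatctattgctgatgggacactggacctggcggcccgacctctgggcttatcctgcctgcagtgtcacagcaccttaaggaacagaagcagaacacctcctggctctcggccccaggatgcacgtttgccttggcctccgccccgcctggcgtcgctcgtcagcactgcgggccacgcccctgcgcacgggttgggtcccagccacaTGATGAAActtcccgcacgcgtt
Ppp1r15a (chr7:45526269-45526518, minus strand): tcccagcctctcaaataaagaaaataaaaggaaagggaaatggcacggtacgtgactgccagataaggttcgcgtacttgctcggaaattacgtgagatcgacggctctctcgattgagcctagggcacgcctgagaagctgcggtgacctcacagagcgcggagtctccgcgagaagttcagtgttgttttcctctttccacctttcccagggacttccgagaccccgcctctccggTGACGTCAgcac

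The strict element was found in the window of 1 member, Chac1, where it began 193 bases before the start site. The looser form was found in 3 members. Besides Chac1 these were Asns, 23 bases before the start site, and Trib3, at base 15 of the transcript. Of 32851 windows of the same length, 0.895% held the strict and 3.97% the looser form. The cyclic AMP response element was found in 1 member, Ppp1r15a, 12 bases before the start site, and in 1.79% of all windows. A match of letters describes the window and does not show binding.

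Ppp1r15a encodes GADD34, the stress-inducible subunit that directs protein phosphatase 1 to eIF2 alpha. The gene spans 45522916 to 45526268 of chromosome 7 (GRCm38, minus strand) and has 2937 bases of exon in the table. Its level was 254, 128, 472, 332, 380 and 314 CPM across libraries 18 to 23. Library 20 was highest (interval 454 to 491 CPM) and library 19 lowest (121 to 135 CPM), and neither interval overlapped that of any other library. Libraries 21, 22 and 23 lay between, with the interval of library 21 (294 to 373 CPM) overlapping those of both others. The highest level was 3.69 times the lowest (95% interval 3.45 to 3.94), or 1.86 times without library 19.

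A chi-square test set each gene's reads against the effective library sizes, to ask if the gene varied beyond counting noise. It took genes with at least 200 reads in all, with Benjamini-Hochberg adjustment over all genes tested. Of 9042 genes tested, 71.6% varied by this test at an adjusted p under 0.05, and in 27.1% the highest level was at least 2 times the lowest. Of the 10 members, 6 had enough reads, and 3 of these 6 varied: Ppp1r15a, Atf4 and Eif2ak3. Only Ppp1r15a among the 6 spanned 2-fold or more, and none did without library 19. The median ratio of highest to lowest level was 1.57 over the 6 members and 1.57 over all tested genes. The test says nothing of genotype, and it finds smaller differences in genes with more reads.

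**Figure D1:**
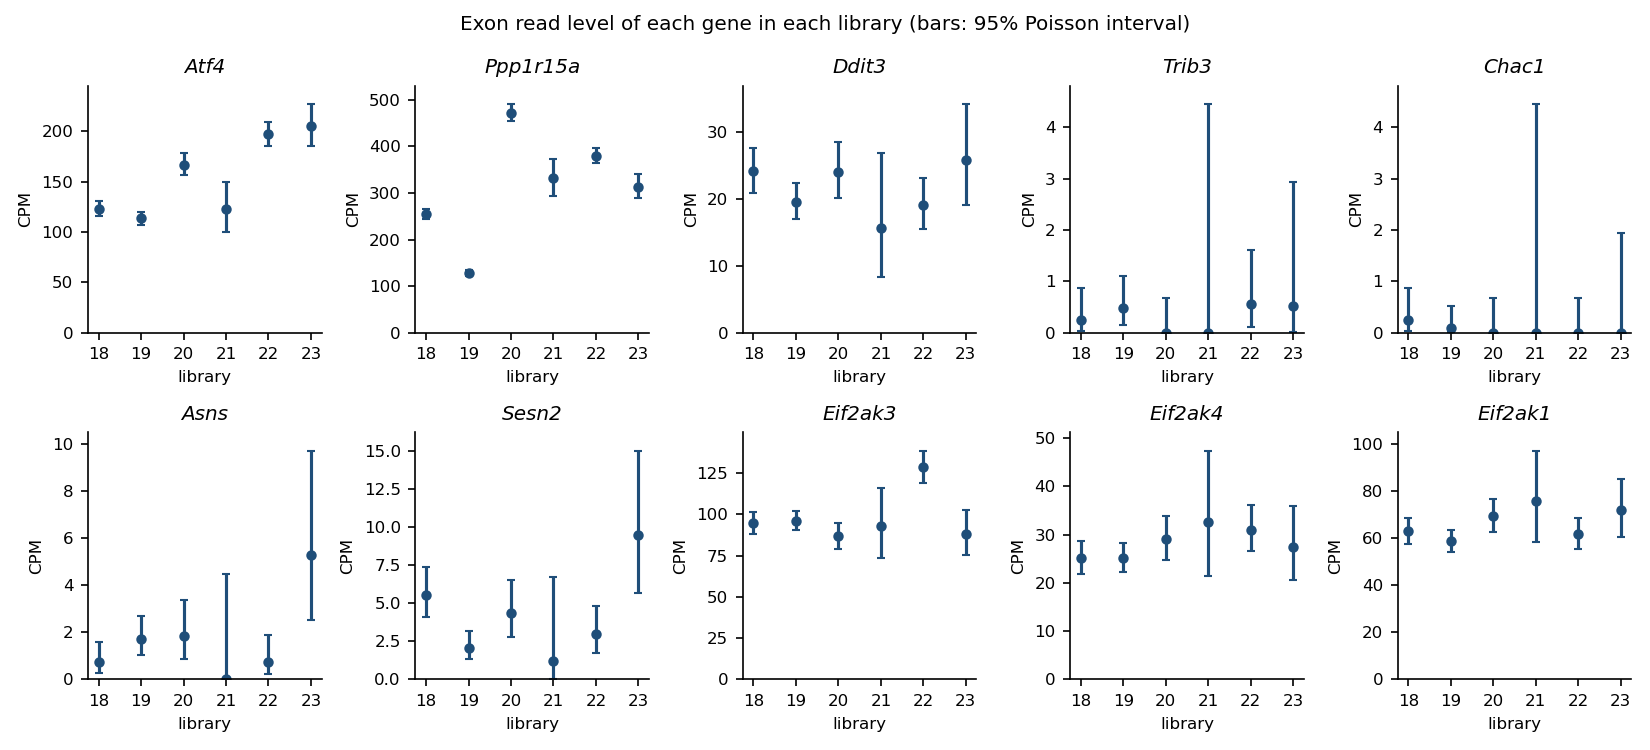
Level of each of the 10 genes (CPM, linear axes from 0) in libraries 18 to 23, with bars for the 95% exact Poisson interval. Ppp1r15a ranges from 128 (library 19) to 472 CPM (library 20), while the points of Trib3 and Chac1 lie at or below 0.554 CPM with intervals that reach 4.45 CPM in library 21.

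Part of the spread of a gene is counting noise, so the spread beyond it was estimated as a coefficient of variation (CV) from the chi-square statistic. For Ppp1r15a this CV was 51.7% (chi-square 1855 on 5 degrees of freedom), above that of 96.6% of tested genes. For Atf4 it was 27.2%, above 88.1% of tested genes, and for Eif2ak3 15.2%, above 65.3%. Ddit3 (10.2%), Eif2ak1 (6.30%) and Eif2ak4 (6.16%) lay under the median of all tested genes, 11.5%.

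Atf4, the central transcription factor of the response, lies on chromosome 15 at 80255184 to 80257540 on the plus strand, with 1724 bases of exon. Its level was 123, 114, 167, 123, 198 and 206 CPM across libraries 18 to 23. Libraries 22 and 23 were highest, with overlapping intervals, and libraries 18, 19 and 21 were lowest, with intervals that also overlapped. Library 20 (156 to 178 CPM) overlapped none of the others. The highest level was 1.81 times the lowest (1.61 to 2.03), and the variation exceeded counting error (adjusted p = 1.5e-55, chi-square test).

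The 2 transcripts both had their lowest CPM in library 19, but they did not change in proportion across libraries. For Atf4 the lowest library depended on scaling, being library 21 with unscaled totals and with deposited RPKM. Within a library the ratio of Ppp1r15a to Atf4 exon reads needs no scaling between libraries. It was 2.07, 1.13, 2.83, 2.70, 1.93 and 1.53 across libraries 18 to 23. Library 19 had the lowest ratio (95% interval 1.04 to 1.22), and library 23, where Atf4 was highest, the next lowest (1.34 to 1.74). Libraries 20 and 21 had the highest ratios, with overlapping intervals.

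Ppp1r15b encodes CReP, the constitutive partner of the same phosphatase, and served as a within-library reference. Its level of 138 to 165 CPM did not pass the chi-square test (adjusted p = 0.0952). In library 19 Ppp1r15a had 0.829 times as many exon reads as Ppp1r15b (0.771 to 0.892), the only library where it had fewer. Elsewhere the ratio ran from 1.72 in library 18 to 2.86 in library 20. These read counts are not scaled to exon length, so the ratio compares libraries and not the abundance of the 2 transcripts. Per kilobase, the median of Ppp1r15b, 12.6 RPKM, lay under the lowest value of Ppp1r15a, 22.0 RPKM in library 19. Among the catalytic subunit genes, Ppp1cb ranged from 180 to 253 CPM and Ppp1ca from 174 to 243 CPM. Of the 4 phosphatase genes besides Ppp1r15a, 3 varied and none spanned 2-fold.

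Genes with the pattern most like that of Ppp1r15a were sought among 6040 well-annotated protein-coding genes with a mean of at least 20 CPM, by the root mean square difference of log2 CPM after subtracting each gene's median over the 6 libraries. The nearest was Tnfaip3, which encodes the NF-kappaB inhibitor A20, with a difference of 0.11 on the log2 scale. It was 974, 430, 1651, 1321, 1410 and 1170 CPM in libraries 18 to 23, so that library 19 was lowest and library 20 highest, as for Ppp1r15a. Next came the AP-1 gene Junb (0.15), the G protein signalling regulator gene Rgs2 (0.15), the insulin receptor substrate gene Irs2 (0.19) and the MAP kinase phosphatase gene Dusp1 (0.21). Of the 5 other members with enough reads to compare, Atf4 was the nearest to Ppp1r15a, at 0.51. All compared genes share the libraries and their depth, so likeness over 6 libraries is a description only.

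**Figure D2:**
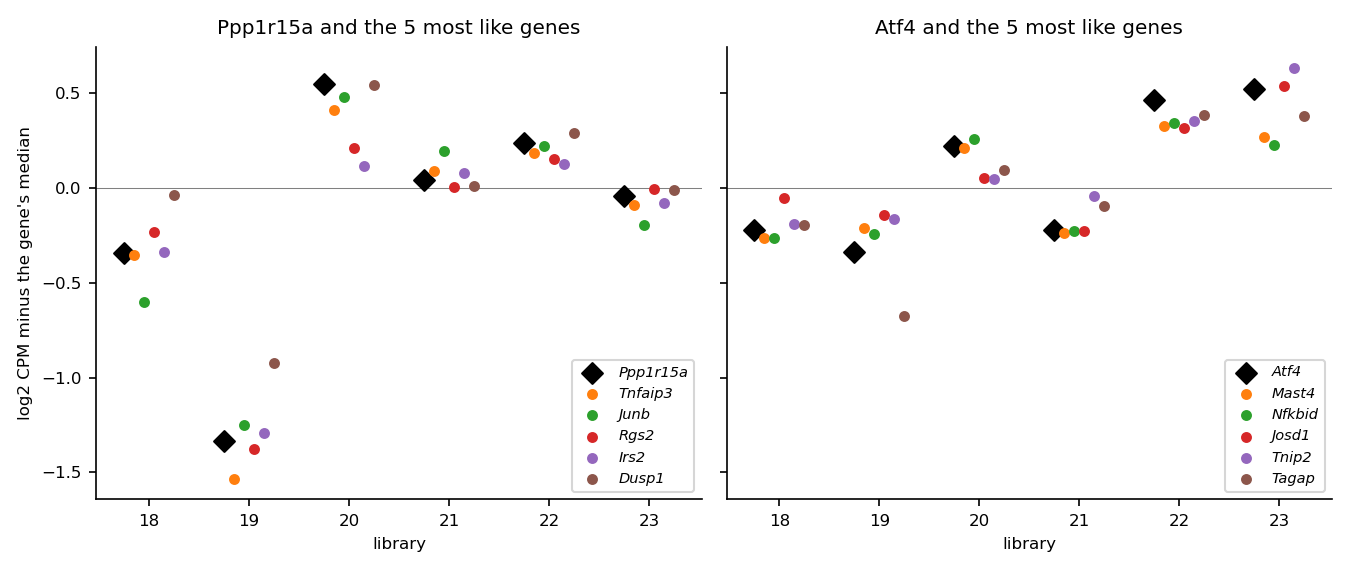
Log2 CPM minus each gene's own median over libraries 18 to 23, for Ppp1r15a and its 5 most like genes (left) and for Atf4 and its 5 most like genes (right); diamonds mark Ppp1r15a and Atf4. Ppp1r15a and its neighbours are all lowest in library 19, whereas Atf4 and its neighbours are higher in libraries 22 and 23 than in libraries 18, 19 and 21.

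Early-response transcripts, which cells also raise while being handled and sorted, were likewise lowest in library 19. The 14 listed genes of this kind summed to 3288, 1586, 6869, 5368, 6757 and 7039 CPM across libraries 18 to 23. All 14 varied beyond counting error, all 14 spanned 2-fold or more, and library 19 was lowest for each. Junb and Dusp1, among the genes most like Ppp1r15a, belong to this list. Fos, an AP-1 factor gene, ranged from 103 to 994 CPM, and the heat-inducible chaperone gene Hspa1b from 4.24 to 876 CPM. B cell, erythroid and plasma cell marker sums were also lowest in libraries 18 and 19, the last at 155 and 487 CPM against 783 to 1197 CPM elsewhere. The plasma cell sum was nearly all Jchain. Of the other plasma cell markers, Mzb1 and Sdc1 were lowest in library 18 and highest in library 22. Mzb1 in library 19 (2.45 CPM) was close to its level in libraries 20, 21 and 23 (2.36 to 2.64 CPM). The sum of the 7 iNKT and T cell markers was highest in library 19, at 4685 CPM, against 3303 to 3999 CPM elsewhere. Of these markers, Cxcr6 (1439 CPM) and Il2rb (1376 CPM) were highest in library 19. Cd3e, Cd3d, Trac and Trav11 were highest in library 22, and Zbtb16 was lowest in library 19, at 245 CPM. The part of early-response activation, of RNA from these other cells, of iNKT cell content and of library 19 in the level of Ppp1r15a was not tested.

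The genes closest to Atf4 were the microtubule-associated kinase gene Mast4 (0.13), the NF-kappaB regulator gene Nfkbid (0.14), the deubiquitinase gene Josd1 (0.14), Tnip2 (0.14), whose product binds A20, and the T cell activation gene Tagap (0.17). Mast4 was at 32.0, 33.2, 44.5, 32.6, 48.2 and 46.4 CPM in libraries 18 to 23. For both Mast4 and Atf4 the higher levels were thus in libraries 20, 22 and 23.

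Ddit3 encodes CHOP, a C/EBP family factor that promotes death when stress persists. It lies on chromosome 10 at 127290774 to 127296288 on the plus strand. Its exon level was 24.1, 19.5, 24.0, 15.7, 19.0 and 25.8 CPM across libraries 18 to 23. The intervals of libraries 21 (8.35 to 26.8 CPM, 13 reads) and 23 (19.1 to 34.2 CPM) overlapped, and the exon levels did not pass the test (adjusted p = 0.0782, chi-square test). The ratio of highest to lowest was 1.65, with an interval of 0.880 to 3.31, so a difference of that size was not detectable at this depth. Ddit3 reads per Atf4 read were fewest in library 22, at 0.0963 (0.0779 to 0.118), and most in library 18, at 0.196 (0.167 to 0.228). Its exons share 68 bases with Mars, a tRNA synthetase gene on the other strand, and as it is not known whether strand was used in counting, reads there cannot be told apart. Mars reached 200 CPM in library 23, against 65.7 CPM or less elsewhere.

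Most reads on Ddit3 were counted on introns. The annotation holds a second Ddit3 gene model on the same strand, which overlaps the first by 2925 bases, shares 105 exon bases with it and was not analysed here, so the source of these reads cannot be told apart. Over all libraries 68.4% of the reads on Ddit3 were intronic, against 7.58% for Ppp1r15a and 12.3% for Atf4. Such a share was not particular to Ddit3, being 70.3% for Eif2ak3, 70.9% for Eif2ak4 and 39.3% for Eif2ak1. Intron levels of Ddit3, per 1000000 intron reads after the same kind of scaling, were 47.1, 34.2, 75.4, 58.0, 67.1 and 63.0 across libraries 18 to 23. Library 19 was lowest and its interval (30.6 to 38.1) overlapped no other. The intron levels varied beyond counting error (adjusted p = 1.2e-27, chi-square test over 7847 genes, of which 82.4% varied), whereas the exon levels had not passed the test. A test of exon against intron reads was not made.

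Exon and intron levels of Ppp1r15a were ordered differently. The intron level was 34.8, 16.6, 34.5, 13.8, 21.1 and 17.3 across libraries 18 to 23. Library 18, next to lowest for exon reads, was highest for intron reads together with library 20. Libraries 22 and 23, with higher exon levels than library 18, had lower intron levels, and their intervals (17.1 to 25.9 and 11.5 to 25.0) did not reach that of library 18 (30.7 to 39.2). The intronic share of Ppp1r15a reads was thus 11.3% in library 18 and 10.4% in library 19 but 3.51% to 6.52% in the other libraries. Library 21 contributed 10 intron reads only.

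For Atf4 the intron level was highest in library 22, at 35.5, where exon reads were high as well. In library 23, highest for exon reads, the intron level was 16.7, and the intronic share there was 6.47% against 9.73% to 14.1% elsewhere. Over all genes with an exon read, introns took between 45.5% of reads in library 22 and 50.6% in library 20.

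**Figure D3:**
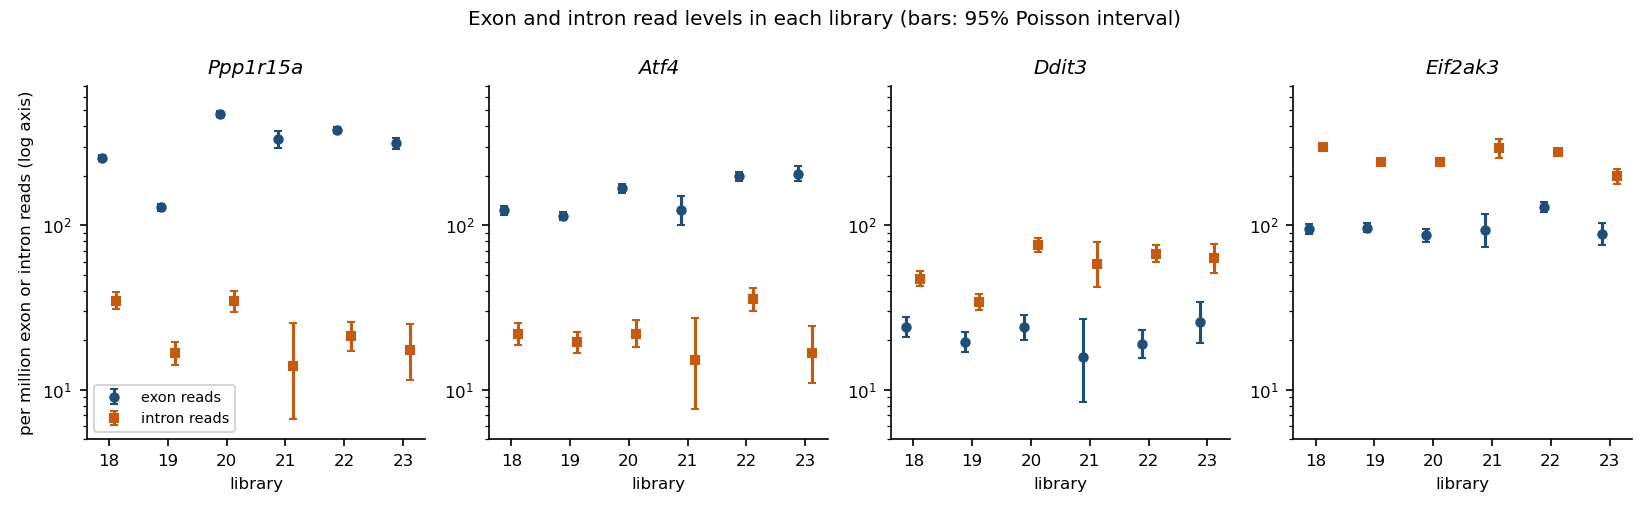
Exon reads (circles, CPM) and intron reads (squares, per 1000000 intron reads) of 4 genes in libraries 18 to 23, on log axes, with 95% exact Poisson intervals. Ddit3 and Eif2ak3 have intron levels above their exon levels in every library, Ppp1r15a and Atf4 the reverse.

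Of the 3 kinase genes among the members, Eif2ak3 alone varied in exon reads by the test. Eif2ak3 (chromosome 6, 70844515 to 70905245, plus strand) was at 94.5, 96.2, 86.5, 92.9, 128.7 and 88.0 CPM across libraries 18 to 23. Library 22 was higher than the rest, with an interval of 119.3 to 138.6 CPM above that of every other library, and the other 5 overlapped. Its variation passed the test (adjusted p = 3.0e-11, chi-square test), with a ratio of 1.49 (1.32 to 1.67), but not without library 22 (ratio 1.11, adjusted p = 0.401). Within libraries, Eif2ak3 reads per Eif2ak1 read were 2.08 in library 22 (1.82 to 2.38) and 1.22 to 1.64 in the others. The intron level of Eif2ak3 in library 22, 278, was not the highest, the range being 198 (library 23) to 300.1 (library 18).

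Eif2ak1 (chromosome 5, 143817788 to 143904251, plus strand) ranged from 58.8 (library 19) to 76.0 CPM (library 21), with a median of 66.2 CPM. It missed the threshold (adjusted p = 0.0624, chi-square test) and passed it without library 18 (adjusted p = 0.0397) or library 22 (0.0416). Its highest level was 1.29 times its lowest (0.981 to 1.68). Its exons share 487 bases with Aimp2 and 172 with Ankrd61 on the other strand. Eif2ak4 (chromosome 2, 118388618 to 118475234, plus strand) ranged from 25.1 (library 18) to 32.6 CPM (library 21), with a median of 28.3 CPM, and did not pass the test (adjusted p = 0.212, ratio 1.30, interval 0.837 to 1.95). Its intron level did pass (adjusted p = 1.0e-05, chi-square test) and was lowest in library 23, at 42.0, against 70.7 to 92.5 elsewhere. Of the 6 members tested on intron reads, 5 varied, beside 82.4% of all genes tested, so the members' share is near that of all genes. Eif2ak1 was the exception (adjusted p = 0.181).

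Among the 6 members compared in this way (Sesn2, Asns, Trib3 and Chac1 were too low), the least separated pair was Eif2ak4 and Eif2ak1, with a root mean square difference of 0.13 on the log2 scale. The genes most like Eif2ak3 were Polm (0.05), a DNA polymerase gene, Med17 (0.07), Exosc7 (0.08), Rab11b (0.08) and Ube2m (0.08), all highest in library 22. The peak that these genes share follows from their choice by likeness, as Eif2ak3 did not pass the chi-square test without library 22. Those most like Eif2ak4 were Ypel5 (0.05), Amd1, Rad23b, Tbl1xr1 (0.05 each) and Zwint (0.06), and those most like Eif2ak1 were Ssbp1, Bms1, Naa15, Ddx54 and Atad1 (0.05 each). For Ddit3 they were Tdp2 (0.08), Cdk8 (0.08), Abcc4, Setdb2 and Cldnd1 (0.09 each). Exon levels of Ddit3, Eif2ak4 and Eif2ak1 had not passed the chi-square test. Likeness to these genes, and between Eif2ak4 and Eif2ak1, thus cannot be told apart from shared counting error.

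Levels of different genes were compared on the deposited RPKM, a depth-scaled count per kilobase of exon. Eif2ak3 was the highest of the kinase transcripts in every library, at 6.60 to 11.7 RPKM, and Eif2ak4 the lowest, at 1.60 to 2.05 RPKM. Eif2ak1 (5.07 to 5.85 RPKM) and Eif2ak2 (4.43 to 7.61 RPKM) lay between and overlapped. Eif2ak3 made up 36.2% to 46.9% of the summed RPKM of the 4 kinases, the highest share being in library 22, and Eif2ak4 7.24% to 9.70%.

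**Figure D4:**
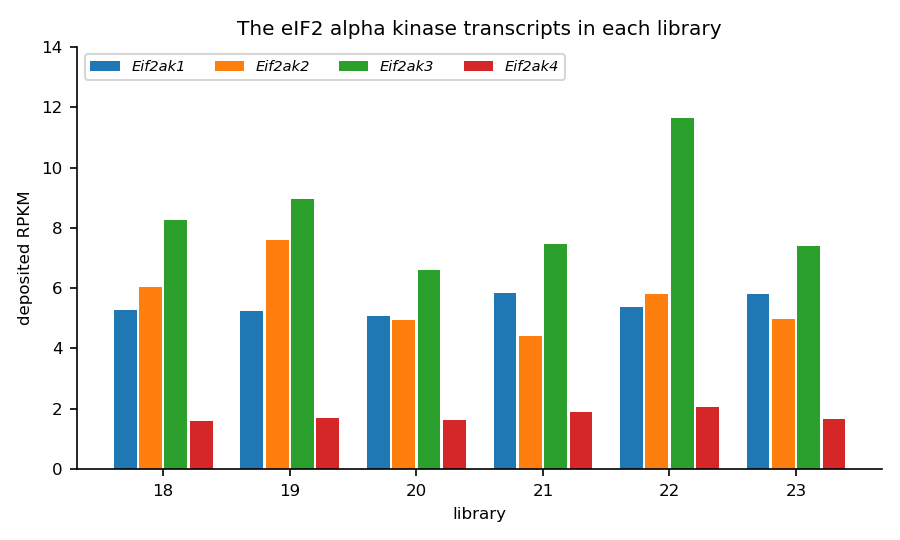
Deposited RPKM of the 4 eIF2 alpha kinase transcripts in libraries 18 to 23 (bars from 0, no error given because the deposited values carry none). Eif2ak3 is the highest in each library, reaching 11.7 RPKM in library 22, and Eif2ak4 the lowest.

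In order of median RPKM over the 6 libraries, Ppp1r15a (49.0) came first and Atf4 (37.0) second, with overlapping ranges and Ppp1r15a the higher in 4 of 6 libraries. Eif2ak3 (7.87) followed at a distance, its highest value of 11.7 lying under the lowest of Atf4, 31.1. Ddit3 (5.77) overlapped its neighbours in the order, Eif2ak3 and Eif2ak1 (5.32), in range. Within libraries, Eif2ak3 was higher than Ddit3 in 6 of 6 and Ddit3 higher than Eif2ak1 in 5 of 6. Eif2ak4 (1.69) was separate from both neighbours. Sesn2 (0.469), Asns (0.204), Trib3 (0.0828) and Chac1 (0) closed the order, each overlapping the next.

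**Figure D5:**
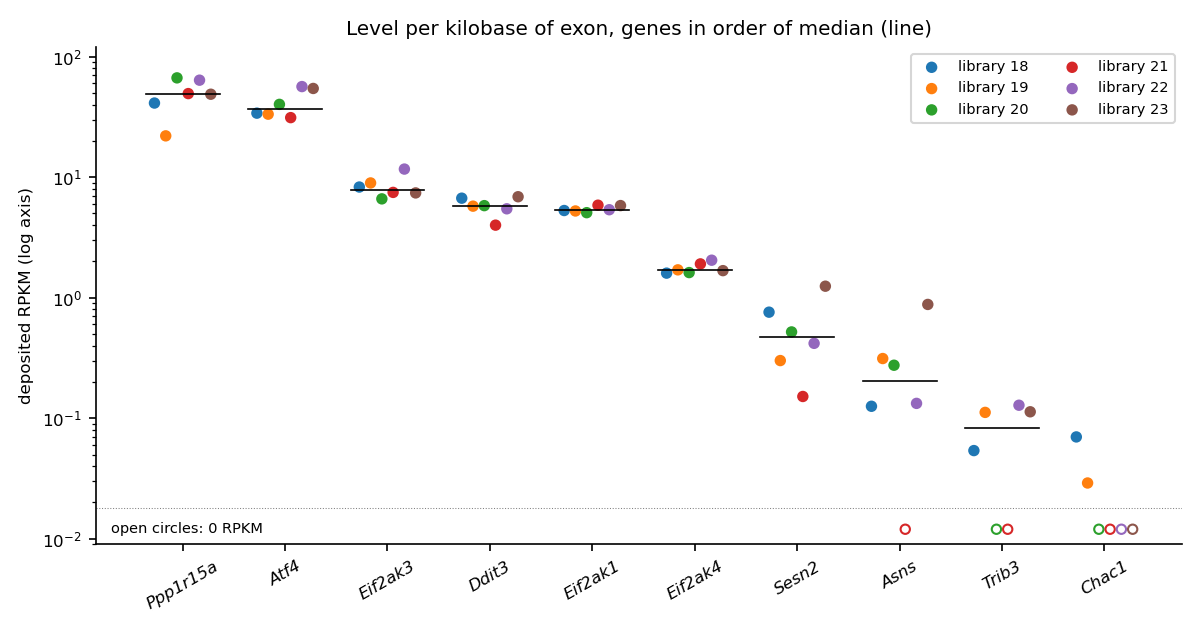
Deposited RPKM (log axis) of the 10 genes in each library, in order of the median (black line); open circles under the dotted line are values of 0. The ranges fall from 22.0 to 66.5 RPKM for Ppp1r15a to at most 0.128 RPKM for Trib3 and 0.0700 RPKM for Chac1.

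Of the effector targets, Asns, Trib3 and Chac1 were barely read. Asns encodes asparagine synthetase (chromosome 6, 7675169 to 7693254, minus strand), and the looser ATF element shown above lies in its promoter window. It had 6, 18, 10, 0, 4 and 10 exon reads in libraries 18 to 23. In library 23 these reads gave 5.27 CPM (2.53 to 9.70), whereas libraries 18, 19, 20 and 22 held between 0.723 and 1.82 CPM. The interval of library 23 overlapped those of library 19 (1.004 to 2.68) and library 20 (0.872 to 3.34). The count of 0 in library 21 allows up to 3.62 CPM by the limit of 3 reads. For each Atf4 exon read there were 0.0256 Asns reads in library 23 (0.0122 to 0.0477) and 0.00374 in library 22 (0.00102 to 0.00960).

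Trib3, a pseudokinase gene that CHOP and ATF4 induce and whose product restrains them (chromosome 2, 152337422 to 152344032, minus strand), had 2, 5, 0, 0, 3 and 1 exon reads in libraries 18 to 23. Chac1, which encodes a glutathione-degrading enzyme and carries the strict element (chromosome 2, 119351229 to 119354381, plus strand), had 2 reads in library 18, 1 read in library 19 and 0 in the other 4 libraries. At this depth no difference between libraries was detectable for either gene. Their counts gave at most 0.554 CPM, but the upper ends of the exact intervals reached 4.45 CPM in library 21, where both had 0 reads.

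Sesn2 encodes sestrin 2, a leucine-binding inhibitor of mTORC1 that ATF4 and p53 induce (chromosome 4, 132492032 to 132510501, minus strand). It had 46, 22, 24, 1, 16 and 18 reads in libraries 18 to 23, too few for the test at 200 reads. Library 23 was highest at 9.49 CPM (5.62 to 15.0) and did not overlap libraries 19 (2.07 CPM, 1.30 to 3.14) and 22 (2.95 CPM, 1.69 to 4.80). Library 18 held 5.54 CPM. Asns and Sesn2 thus both had their highest value in library 23, with 10 and 18 reads. Library 23 also held the highest early-response, B cell and erythroid sums, and their part in these levels was not tested. The related genes Sesn3 and Sesn1 had median levels of 23.1 and 35.8 RPKM, against 0.469 RPKM for Sesn2.

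Other genes of the pathway came from 8 lists holding 76 genes, all found in the table. Of 54 with enough reads, 46 varied beyond counting error and 10 spanned 2-fold or more, to be set beside 71.6% and 27.1% of all tested genes. The counts within each list are to be set beside the same shares. Their median ratio of highest to lowest level was 1.48. Among partners of the kinases all 5 varied and none spanned 2-fold. Dnajc3, whose product inhibits PERK, had a median of 163 CPM, Gcn1l1, the GCN2 activator gene, 120 CPM, and the adaptor gene Nck1 ranged from 61.5 to 92.7 CPM.

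Subunits of eIF2 and of its exchange factor eIF2B were read in every library, and 5 of 8 varied. Eif2s2, the beta subunit gene, was at 310 CPM in library 19 and 469 CPM in library 23. Eif2s3x, a gamma subunit gene, was at 187 to 212 CPM and did not pass the test (adjusted p = 0.114, chi-square test). Eif2b5, the catalytic subunit gene of eIF2B, spanned most, from 9.65 (library 21) to 28.5 CPM (library 23). The low value rests on few reads, as 1 read in library 21 is 1.21 CPM.

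Among 7 genes for transcription factors that pair with ATF4 or share its family, only 2 had enough reads, and both varied: Cebpg, at 32.8 to 49.0 CPM, and Cebpb, at 12.8 CPM in library 19 and 23.6 CPM in library 22. Atf3, a stress-induced factor gene named here after its values were seen, had 90 reads in all. It was at 0.964 CPM in library 18, at 0 in library 19, which allows up to 0.282 CPM, and at 7.64, 6.03, 4.06 and 6.85 CPM in libraries 20 to 23.

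Amino acid supply is a main output of ATF4. Among 13 enzymes of amino acid and one-carbon metabolism, 5 of 7 tested varied and 2, Cth and Cbs, named here after their values were seen, had no read in any library. Phgdh, the entry enzyme gene of serine synthesis, ranged from 35.3 (library 20) to 60.1 CPM (library 23). The aminotransferase gene Got1 had a median of 48.3 CPM, and Psph, the last enzyme gene of serine synthesis, ranged from 4.22 (library 23) to 12.3 CPM (library 18). The low value of Psph rests on few reads, as 1 read in library 23 is 0.527 CPM. All 4 tested transporters varied without spanning 2-fold. Slc38a2, a neutral amino acid transporter gene, was at 222 CPM in library 18 and 374 CPM in library 20, the glutamine transporter gene Slc1a5 at 201 to 247 CPM, and the cationic transporter gene Slc7a1 at 47.1 CPM in library 19 and 84.9 CPM in library 23.

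Cytosolic tRNA synthetase genes and the tRNA exporter gene Xpot varied in 9 of 11 cases, with Mars, at 47.0 CPM in library 18, the only one spanning 2-fold. Eprs (192 to 280 CPM) and Tars (147 to 240 CPM) had the highest median CPM of this list, and both were highest in library 23. Of 19 genes for growth control, autophagy and death, 13 were tested, all 13 varied and 6 spanned 2-fold. Sesn3 ranged from 441 to 555 CPM. Ero1l, an oxidase gene of the endoplasmic reticulum, stayed at 244 to 285 CPM. Stc2, a secreted glycoprotein gene, ranged from 1.21 CPM in library 21, on a single read, to 12.3 CPM in library 19.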

How the data were processed

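The deposited table gave, per the file headers, whole exon read counts, RPKM, the fraction of each gene's reads on introns and, as another value, exon length, for 6 libraries. The counts are not normalized. The deposited RPKM were scaled by the authors to exon length and depth. The submitters' processing notes list GRCm38 and mm10 as builds; aligner and counter, and use of strand or molecular identifiers, are not given in the sources used. A further 11 columns of values per library were not used. Library names matched no label, so the planned edgeR comparison of genotypes was not run.

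Effective sizes used TMM factors (edgeR 4.0.16, R 4.3.3) on 9510 genes kept by filterByExpr. Intron reads were recovered from the deposited fraction and the exon count (members within 0.01 of a whole number) for genes with an exon read in every library; their test was added after the data were seen. The chi-square test (minimum 200 reads) was tested on simulated data. Ratios have exact conditional binomial intervals. Overlapping genes come from GENCODE M21 (GRCm38), promoters from RefSeq (GRCm38.p6). Likeness left out predicted, mitochondrial and receptor-segment genes and chromosome 18. Named genes were all members, the 2 most abundant and the most variable tested gene of each pathway list, and the 5 genes most like each member with a mean of at least 20 CPM. Members and lists were chosen with earlier results of these data known. Alternatives were DESeq2 1.42.0, upper-quartile or no scaling, a minimum of 50 reads, deposited RPKM and leaving out each library.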

Additional observations from a re-analysis of the deposited data

How the results depend on the processing

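Counts of varying members (3) and of members spanning 2-fold (1) were the same under DESeq2 size factors, upper-quartile factors and unscaled totals, and the other pathway genes that varied numbered 43 to 47 under these scalings. With a minimum of 50 reads, 4 of 7 members varied. At that minimum 2 of 7 members spanned 2-fold, the added gene being Sesn2. Without library 18, 4 of 6 members varied, as Eif2ak1 then passed the threshold. Without library 19 the number spanning 2-fold was 0, and the summed level of the 10 members ranged 1.45-fold in place of 1.92-fold. On intron reads 5 of 6 members varied, beside 82.4% of all genes tested on them. Atf4 was lowest in library 21 in place of 19 with unscaled totals and with deposited RPKM. Its highest library was 22 in place of 23 with deposited RPKM. With deposited RPKM the ratio of highest to lowest level was 3.03 in place of 3.69 for Ppp1r15a and 1.77 in place of 1.49 for Eif2ak3; the cause was not tested. Depth limits the values of library 21 and every statement on Asns, Trib3, Chac1 and Sesn2. No paired analysis was possible because the libraries in the table carry no label, and hence no genotype or replicate number.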
